A study of Mus musculus with 25 samples.

Results

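The genes that make, package, take up and break down dopamine were followed through 25 single cells picked from mouse arcuate nucleus and median eminence. There were 9 of them, chosen by name, among 30903 gene symbols measured: Th, Ddc, Gch1, Pts, Qdpr, Slc18a2, Slc6a3, Maoa and Maob. Each was on 1 row of the table. All cells came from adult male RIP-Cre mice on a (C57BL/6 x DBA)F2 background with an average age of 63 days, and 2 mice were pooled. In these mice a rat insulin promoter drives Cre recombinase, and the cells carried green fluorescent protein (GFP) from an adeno-associated virus (AAV) that is switched on by Cre. The cells were picked by hand for GFP, so they stand for labelled cells and not for the arcuate nucleus as a whole, and there were no unlabelled cells to compare them with. They form 1 group from 1 pool of mice, so no test between groups was possible and no p-value is given. Cells are named by their label numbers.

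Dopamine is made from tyrosine. Tyrosine hydroxylase, encoded by Th, makes L-DOPA with the help of tetrahydrobiopterin, and the decarboxylase encoded by Ddc turns L-DOPA into dopamine. The vesicular transporter Slc18a2 (VMAT2) packs dopamine into vesicles, the reuptake transporter Slc6a3 (DAT) brings it back into the neuron, and the monoamine oxidases Maoa and Maob break it down. In the arcuate nucleus, tuberoinfundibular dopamine neurons release dopamine at the median eminence, where it reaches the pituitary and restrains prolactin. Other arcuate neurons are known that carry Ddc without Th.

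Levels are in RPKM, in which reads are divided by gene length in kilobases and scaled to the total of the cell. A level of 10 RPKM or more was taken as detection. Estimated depth was lowest in cell 9 (891000 reads) and highest in cell 11 (2958000 reads), with a median of 1823000, so that 10 RPKM of a gene of 1 kb is about 18.2 reads at the median depth. A cell held 3843 to 6183 detected genes. Every cell had the profile of a neuron, with 7 to 10 of 10 neuronal markers detected, while precursor, fibroblast and all but 1 pituitary marker were listed at 0 throughout. Cells 1, 3, 5, 6, 29 and 31 were low in the nuclear RNA Malat1, with no more than 16.6 RPKM, while the lowest of the other 19 cells had 45.9 RPKM, and results that move with it are given beside its values.

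The promoter windows of 4 members are shown because Ddc, Gch1 and Slc18a2 had the 3 highest correlations with Th among the members, as described below. Windows came from RefSeq (GRCm38.p6), run 5′ to 3′ on the strand of the gene from 250 bases before to 50 bases after its start, and were found for 8 of the 9 members. Capitals mark matches on either strand to the cyclic AMP response element (CRE) TGACGTCA, its core TGACG, the nuclear receptor motif AAAGGTCA (NBRE), the homeobox core TAATTA, the TATA box TATAAA and the GC box GGGCGG. Each CRE also holds the core on both strands.
Th, chr7:142899946-142900245, minus strand: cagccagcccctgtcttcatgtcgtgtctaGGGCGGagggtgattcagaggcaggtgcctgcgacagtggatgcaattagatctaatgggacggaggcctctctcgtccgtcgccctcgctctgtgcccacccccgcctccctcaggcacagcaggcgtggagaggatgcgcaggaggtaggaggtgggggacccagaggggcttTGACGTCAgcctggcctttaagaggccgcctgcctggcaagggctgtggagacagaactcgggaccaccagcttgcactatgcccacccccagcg
Slc18a2, chr19:59260628-59260927, plus strand: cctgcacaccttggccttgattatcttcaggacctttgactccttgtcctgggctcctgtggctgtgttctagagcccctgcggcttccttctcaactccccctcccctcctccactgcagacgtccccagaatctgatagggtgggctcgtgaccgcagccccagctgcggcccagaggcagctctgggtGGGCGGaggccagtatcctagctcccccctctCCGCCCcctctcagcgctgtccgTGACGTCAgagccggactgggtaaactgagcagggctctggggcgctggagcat
Ddc, chr11:11898095-11898394, minus strand: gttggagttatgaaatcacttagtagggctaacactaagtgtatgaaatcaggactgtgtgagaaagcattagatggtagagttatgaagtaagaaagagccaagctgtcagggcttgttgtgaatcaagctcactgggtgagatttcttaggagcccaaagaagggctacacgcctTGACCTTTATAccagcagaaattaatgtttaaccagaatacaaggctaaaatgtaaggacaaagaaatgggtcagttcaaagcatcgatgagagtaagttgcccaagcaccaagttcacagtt
Gch1, chr14:47189364-47189663, minus strand: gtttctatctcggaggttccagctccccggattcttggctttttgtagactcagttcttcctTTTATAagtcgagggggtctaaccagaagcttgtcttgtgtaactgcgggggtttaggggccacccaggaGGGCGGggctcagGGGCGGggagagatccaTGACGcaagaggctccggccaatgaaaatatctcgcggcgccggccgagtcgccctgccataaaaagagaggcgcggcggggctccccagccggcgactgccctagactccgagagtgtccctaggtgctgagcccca

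The full CRE was in the windows of Th, where it began 45 bases before the start, and of Slc18a2, where it began 4 bases before the start. Of all 32851 windows of this length, 1.79% held it, and the windows of the other 6 members with an entry did not. The core without a full CRE occurred in the windows of Gch1 and Maoa and in 6249 of the 32851 windows. In the Ddc window shown, an NBRE began 73 bases before the start and overlapped a TATA box, against 1.51% of all windows with an NBRE and 13.6% with a TATA box. Another RefSeq start of Ddc, at chr11:11890359-11890658, held none of these motifs. The RefSeq start used for Th lies inside the GENCODE span of the gene, which is given below, and not at its end. The GC box was in the windows of Th, Gch1, Pts, Qdpr, Slc18a2, Slc6a3 and Maoa and in 35.7% of all windows, and TAATTA was in none of the members' windows and in 5.29% of all. These matches describe letters only.

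All 9 members reached 10 RPKM in at least 1 cell, where 42.7% of all symbols did so. Qdpr, Ddc, Pts and Maob were detected in 13 or more of the 25 cells, a spread reached by 13.5% of all symbols. The order by number of cells was Qdpr (24), Ddc (18), Pts (17), Maob (13), Maoa (11), Gch1 and Slc18a2 (9 each), Th (8) and Slc6a3 (2). The exact Clopper-Pearson 95% intervals of neighbours in this order overlapped in each case, and they account for counting error alone. Cell 11 held all 9 members, and the median cell held 4, with a range of 2 to 9.

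**Figure D1:**
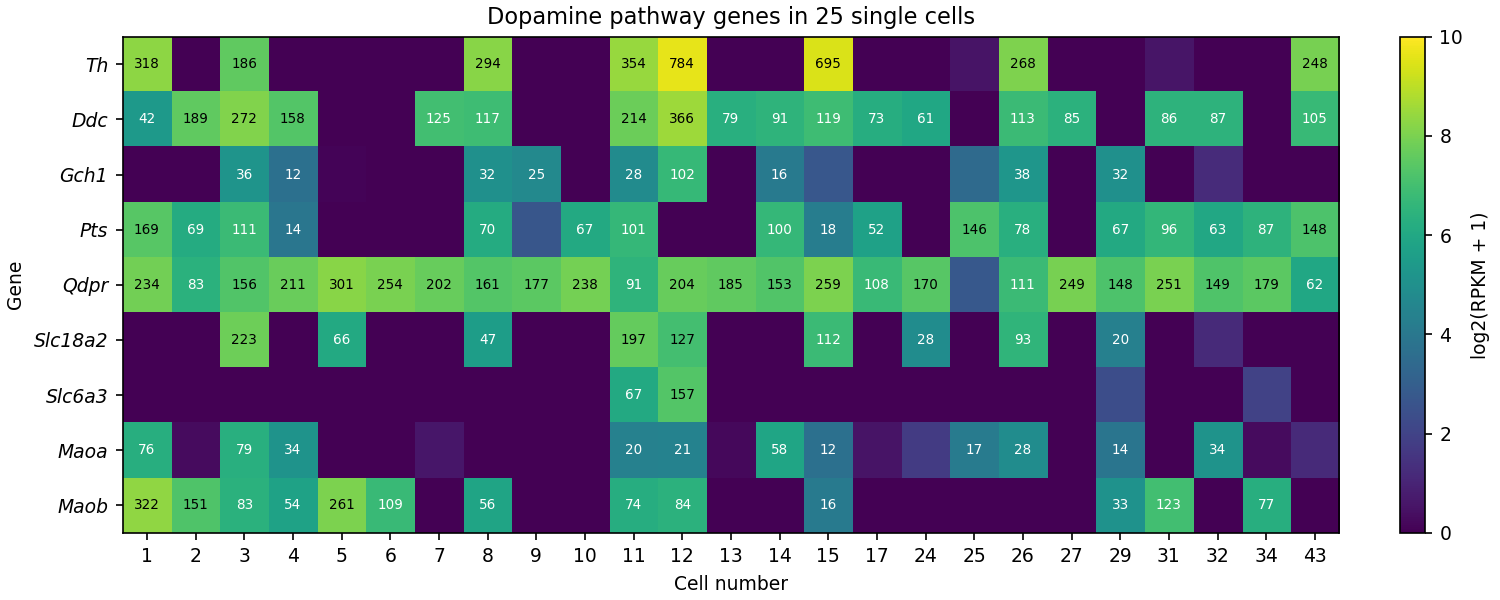
Heat map of the 9 members (rows) in the 25 cells (columns, by cell number), coloured by log2(RPKM + 1), with RPKM printed where it is 10 or more. Qdpr fills 24 columns, Th and Slc18a2 occupy few, and Slc6a3 stands in cells 11 and 12 alone.

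Th was either abundant or nearly absent. Tyrosine hydroxylase, the rate-limiting enzyme of the pathway, lies on chromosome 7 from 142892752 to 142931128 (GRCm38, minus strand). It was detected in 8 of 25 cells (32%, interval 14.9 to 53.5%), at 186 RPKM in cell 3, 248 in cell 43, 268 in cell 26, 294 in cell 8, 318 in cell 1, 354 in cell 11, 695 in cell 15 and 784 in cell 12. Of the other 17 cells, 15 were listed at 0 and cells 25 and 31 had 0.45 and 0.47 RPKM. No cell lay between these values and 186 RPKM, so the same 8 cells were found at 5, 10 or 20 RPKM. Th was the highest of all genes in cells 12 and 15 and the 7th highest in cell 11, while its place in the other 5 Th cells ran from 178th to 580th. The levels in cells 12, 15 and 11 correspond to 1.18, 1.43 and 1.05 reads per base of the gene. The 50 highest genes of a cell averaged 0.587 to 0.950 reads per base, and whether counting levels off at such densities was not tested.

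Ddc followed Th but was not limited to Th cells. The decarboxylase of L-DOPA lies on chromosome 11 from 11814101 to 11898144 (minus strand). It was detected in 18 cells (72%, interval 50.6 to 87.9%) and listed at 0 in the other 7, with detected values of 42.0 RPKM in cell 1 to 366 RPKM in cell 12 and a median of 109 RPKM. All 8 Th cells had Ddc. A further 10 cells (2, 4, 7, 13, 14, 17, 24, 27, 31 and 32) had Ddc without Th (40% of all, interval 21.1 to 61.3%). Their values ran from 60.8 RPKM in cell 24 to 189 RPKM in cell 2. Among the Th cells, cell 1 alone was lower than these, and the next lowest was cell 43 at 105 RPKM. Cells 13, 14, 17, 24, 27, 31 and 32 lay below cell 43, at up to 90.9 RPKM, and cells 2, 4 and 7 above it. The 7 cells 5, 6, 9, 10, 25, 29 and 34 had neither enzyme gene. Among the Th cells the ratio of Th to Ddc per length was far from constant. It was 0.683 in cell 3, the only Th cell with more Ddc than Th, 1.66 in cell 11, 2.14 to 2.52 in cells 8, 12, 26 and 43, 5.82 in cell 15 and 7.57 in cell 1.

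**Figure D2:**
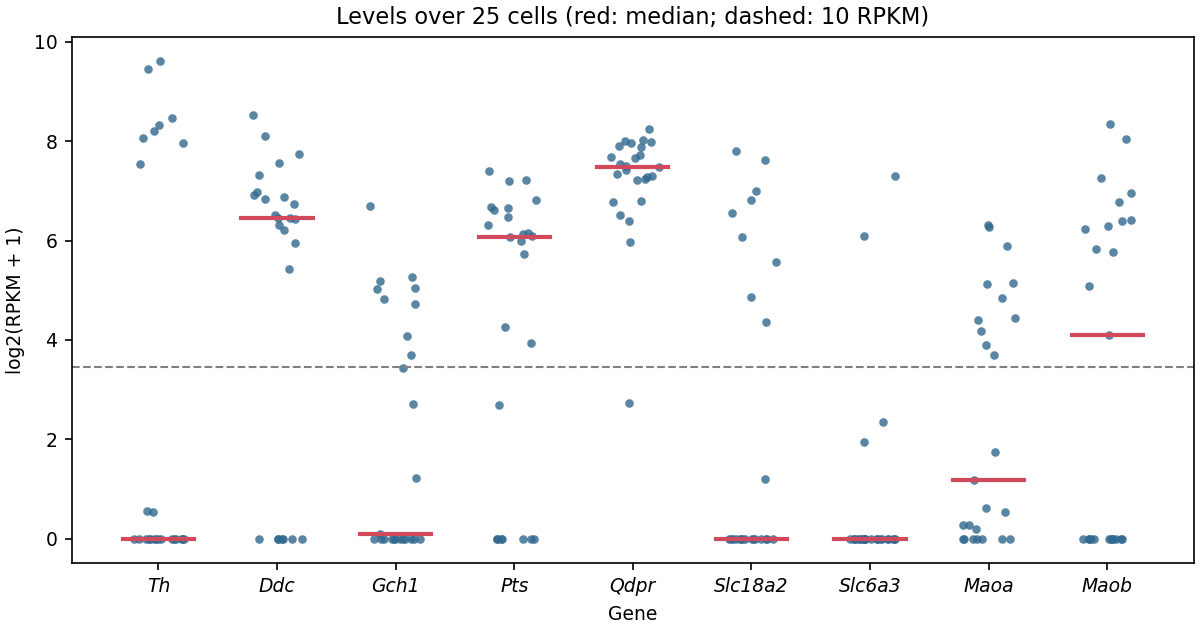
Levels of the 9 members as log2(RPKM + 1), 1 point per cell (25 cells), with the median in red and the detection level of 10 RPKM dashed. Points of Th and Ddc stand well above the line or near 0, whereas Gch1 and Maoa also have points around the line.

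The genes for the cofactor tetrahydrobiopterin differed in spread. Gch1, GTP cyclohydrolase, which starts and limits its synthesis, was the least frequent, in 9 cells (36%, interval 18.0 to 57.5%). Its detected values ran from 12.0 RPKM in cell 4 to 102 RPKM in cell 12, with a median of 31.5 RPKM, and cell 25 lay just below the level at 9.88 RPKM. Of the 8 Th cells, 5 (3, 8, 11, 12 and 26) had Gch1. Cell 15, with the next to highest Th, had 5.52 RPKM, and cells 1 and 43 were listed at 0. Pts, which carries out the next step, was in 17 cells (68%, interval 46.5 to 85.1%) at 14.3 to 169 RPKM, and in 7 of the 8 Th cells. The exception was cell 12, the cell with the most Th, Ddc and Gch1, where Pts was listed at 0. Qdpr, dihydropteridine reductase, which regenerates the used cofactor, was in 24 cells (96%, interval 79.6 to 99.9%) at 61.7 to 301 RPKM, and at 5.67 RPKM in cell 25. Of all pairs of members, Pts and Qdpr had the lowest r (Pearson r = -0.43, Spearman rho = -0.51), as a description of 25 cells of 1 pool. Cell 25, so low in Qdpr, had Pts at 146 RPKM, and r of this pair without cell 25 was not computed.

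Of the other cofactor genes listed, the sepiapterin reductase gene Spr was detected in 19 cells, 6 of them Th cells, with a median of 61.3 RPKM. Pcbd1, whose product recycles the cofactor, was in 23 cells, all 8 Th cells among them, with a median of 189 RPKM. Its relative Pcbd2 was in 15 cells but in 3 of the 8 Th cells. Gchfr, the feedback regulator of Gch1, was detected in cell 2 alone, at 48.5 RPKM, and Gch1 was listed at 0 there. Pdxk and Pdxp, which handle the vitamin B6 cofactor of Ddc, were detected in 24 and 25 cells. All 10 of the listed kinases, phosphatases and binding proteins that act on tyrosine hydroxylase were detected, 8 to 10 per cell, with a median r with Th of -0.04. Among them Ywhaz, a 14-3-3 protein, had a median of 285 RPKM and was detected in all 25 cells.

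Slc18a2 was the member whose pattern was closest to Th. The vesicular monoamine transporter gene lies on chromosome 19 from 59260896 to 59296012 (plus strand) and was detected in 9 cells (36%, interval 18.0 to 57.5%). Its values were 19.5 RPKM in cell 29, 28.2 in cell 24, 46.6 in cell 8, 66.1 in cell 5, 92.7 in cell 26, 112 in cell 15, 127 in cell 12, 197 in cell 11 and 223 in cell 3. Of the other 16 cells, 15 were listed at 0 and cell 32 had 1.30 RPKM. The cells with Th and Slc18a2 together were 3, 8, 11, 12, 15 and 26 (75% of Th cells, interval 34.9 to 96.8%, against 36% of all cells with Slc18a2). Cells 1 and 43 had Th and Ddc with Slc18a2 listed at 0, and cells 5, 24 and 29 had Slc18a2 with Th listed at 0. GENCODE has an antisense gene that shares 111 exon bases with Slc18a2 and another that shares 332 with Qdpr. The libraries mark no strand, so reads there cannot be assigned to either gene.

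Slc6a3, the plasma membrane dopamine transporter, was the rarest member. Cell 11 had it at 66.9 RPKM and cell 12 at 157 RPKM (8% of cells, interval 0.984 to 26.0%), and cells 29 and 34 had 4.12 and 2.88 RPKM. Cells 11 and 12 were the 2 cells with Th, Ddc, Gch1, Slc18a2, Slc6a3, Maoa and Maob all detected. The other 6 Th cells were listed at 0 for it. A different carrier that takes up monoamines with low affinity, Slc29a4 (PMAT), was more frequent. It was detected in 16 cells at a highest value of 124 RPKM, and all 8 Th cells had it, at 14.8 RPKM in cell 1 to 101 RPKM in cell 26. The transporters of noradrenaline (Slc6a2) and serotonin (Slc6a4), the vesicular transporter Slc18a1 and the organic cation carriers Slc22a2 and Slc22a3 reached the level in no cell. With 3 cells of 25 taken as the limit for a count of 0, each allows a share of up to 12%, for counting error only.

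The monoamine oxidases were spread over more cells than Th, and their cells overlapped in part. Their genes lie next to each other on the X chromosome, Maoa from 16619698 to 16687818 and Maob from 16709282 to 16817366, on opposite strands. Maoa was detected in 11 cells (44%, interval 24.4 to 65.1%) at 12.0 to 78.7 RPKM, and a further 7 cells had values of up to 2.37 RPKM. Maob was detected in 13 cells (52%, interval 31.3 to 72.2%) with values of 16.1 to 322 RPKM, and 12 cells were listed at 0. Maoa and Maob shared 7 cells, 17 cells had at least 1 of them and 8 had neither. Each was found in 6 of the 8 Th cells: cells 8 and 43 lacked Maoa, and cells 26 and 43 lacked Maob. Cell 43 was therefore the Th cell with neither oxidase detected, at 1.28 and 0 RPKM.

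Maob moved against Malat1. All 6 cells low in Malat1 had Maob, at 33.1 to 322 RPKM, and the highest values of all, 322 RPKM in cell 1 and 261 RPKM in cell 5, were among them. Of the other 19 cells, 7 had Maob. Pearson r of Maob with Malat1 was -0.60 on the log2(RPKM + 1) scale, against 0.08 for Maoa. Qdpr also had a negative r with Malat1, of -0.35, and the other members ran from -0.10 (Slc18a2) to 0.17 (Ddc). The part of Malat1 in these values was not tested. Since Maob is also a gene of astrocytes and histamine neurons, their markers were read too. Of 7 astrocyte markers, Gfap and Agt were listed at 0 in all cells and Aqp4, Slc1a3 and Gja1 had at most 2.72 RPKM. Aldh1l1 and Slc1a2 were detected in 1 cell each, cells 17 and 7, where Maob was listed at 0. The summed level of the 7 astrocyte markers was 0 to 39.8 RPKM per cell. Hdc, the histamine enzyme, was detected in cell 15 alone, the cell with the lowest detected Maob.

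Among the other breakdown genes, the aldehyde reductase genes Akr1a1 and Akr1b3 were detected in 25 and 23 cells, and Adh5, an alcohol dehydrogenase, in 21. Aldh2, a mitochondrial aldehyde dehydrogenase, was in 15 cells but in 3 of the 8 Th cells (12, 26 and 43), with r = -0.43. Aldh1b1 was in 6 cells, of which 4 were Th cells. Aldh1a1, an aldehyde dehydrogenase known from a subset of midbrain dopamine neurons, was listed at 0 in all 25 cells.

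To read the pattern of Th over the cells against the rest of the genome, Pearson r of log2(RPKM + 1) with Th was computed for every gene detected in at least 3 cells. The 9775 genes outside the set had a median r of 0.00 and a central 95% range of -0.41 to 0.42. Slc18a2 had r = 0.64 and would stand in place 12 among them. Gch1 had r = 0.49 (place 117), Ddc 0.48 (place 121), Maoa 0.44 (place 199), Maob 0.29 (place 1001), Pts 0.28 (place 1107) and Qdpr -0.02 (place 5261). For Qdpr, r was -0.23 without cell 25. For Pts, it was 0.43 without cell 12 and 0.17 without the 6 cells low in Malat1, and for Maoa it was 0.29 without those 6 cells. Of the 7 members in this comparison, 1 had r of 0.5 or more, where 1.03% of all genes tested had. Both figures are for this setting, and other settings brought further members past 0.5. On the log2(RPKM + 10) scale Gch1 had r = 0.53 and Ddc 0.52, and Gch1 had 0.57 without the 6 cells low in Malat1. Slc6a3, detected in too few cells to be ranked, had r = 0.40, and 0.22 without cell 12. The cells share 1 pool of mice and differ in depth. With log2 depth, r was 0.10 for Th and 0.37 for Slc18a2.

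**Figure D3:**
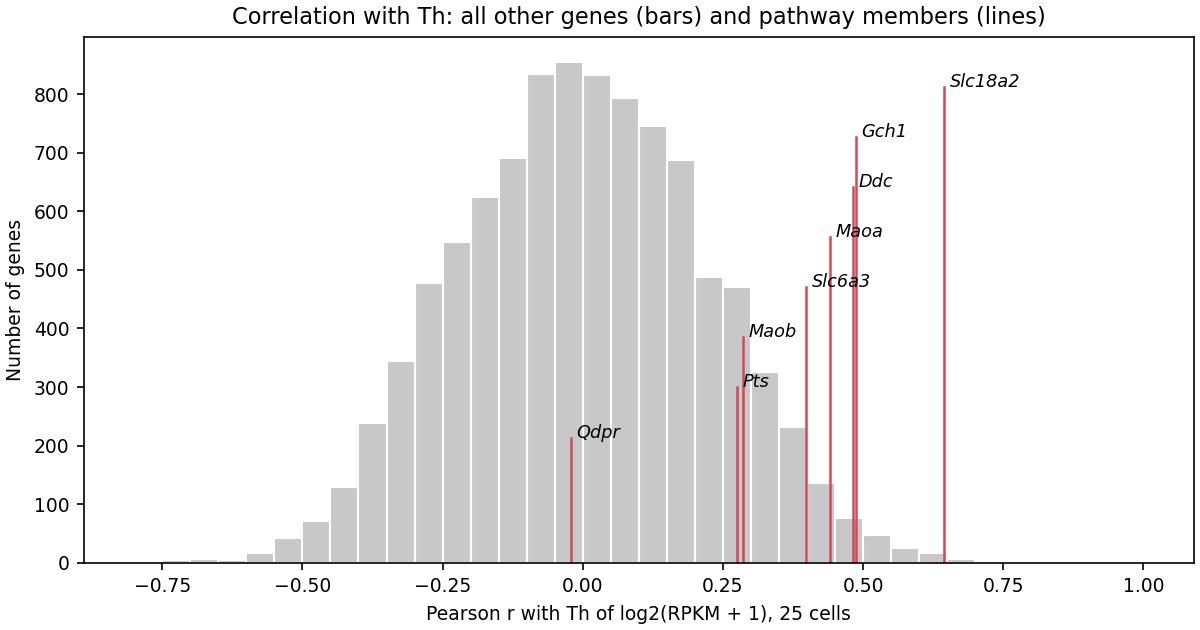
Histogram of Pearson r with Th of log2(RPKM + 1) over 25 cells for 9775 genes (grey bars, number of genes), with the 8 other members as red lines whose heights carry no value. Slc18a2 at 0.64 lies in the right tail, and Qdpr at -0.02 in the centre.

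Outside the members, the 10 genes most like Th in this measure (25 cells) were Tgfb2 (r = 0.71), Arhgap10 (0.70), Dhrs7 (0.70), Lhx1os (0.70), Nucb2 (0.69), Flt3l (0.69), Lhx1 (0.68), Chac2 (0.68), Reps1 (0.65) and Dlx5 (0.65). Dhrs7, a dehydrogenase of the short-chain family, and Nucb2, the precursor of nesfatin, were detected in all 8 Th cells, and in 14 and 13 cells in all. Dhrs7 reached 177 RPKM and Nucb2 203 RPKM at most. Arhgap10, Flt3l and Reps1 were detected in 3, 4 and 4 cells, each time in Th cells. For Slc18a2 the most similar genes were Lhx1os (r = 0.90), Lhx1 (0.89) and Sp9 (0.81), the last a zinc finger factor of forebrain GABA neurons. Lhx1os is annotated beside Lhx1 on the opposite strand, which these libraries do not mark. For Maoa they were Rnf34 (0.86), Hspb8 (0.73) and Panx1 (0.73), for Gch1 Mtpap (0.77), Tmcc3 (0.75) and Gtf3c5 (0.67), and for Ddc Klf9 (0.74), Lingo2 (0.68) and Wdr31 (0.67). For Pts they were Hs2st1 (0.67), Smg5 (0.65) and Phtf1 (0.62).

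Among the listed transcription factors, Lhx1 and Otp divided the Th cells along the same line as Slc18a2. Isl1, Dlx1 and Dlx5 were detected on both sides of that line. Lhx1 is also among the genes most like Slc18a2 named above, so its match is not a separate result. The 6 cells with Th and Slc18a2 all had Lhx1, a LIM homeobox gene, at 11.5 RPKM in cell 15, 14.3 in cell 8, 34.9 in cell 26, 42.2 in cell 3, 87.2 in cell 11 and 107 in cell 12. Otp, a homeobox gene of the developing hypothalamus, was listed at 0 in all 6. In cells 1 and 43, Lhx1 was listed at 0 and Otp was at 24.5 and 27.1 RPKM. Otp was also detected in cells 6 and 34, which had no Th, and its r with Th was -0.04. Dlx5, a homeobox gene of forebrain GABA neurons, was in 7 of the 8 Th cells and was listed at 0 in cell 1. Cell 5 had Slc18a2 at 66.1 RPKM with Lhx1 at 70.2, Dlx5 at 123 and Sp9 at 36.1 RPKM, yet Th and Ddc were listed at 0 there and Gch1 was at 0.07 RPKM. Cells 24 and 29, with Slc18a2 but no Th, had Lhx1, Dlx5 and Sp9 listed at 0. Cells 1, 3, 5 and 29 were low in Malat1, so without such cells 5 cells with both Th and Slc18a2 and 1 with Th alone are left. These factors were singled out from their list after their values were seen.

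**Figure D4:**
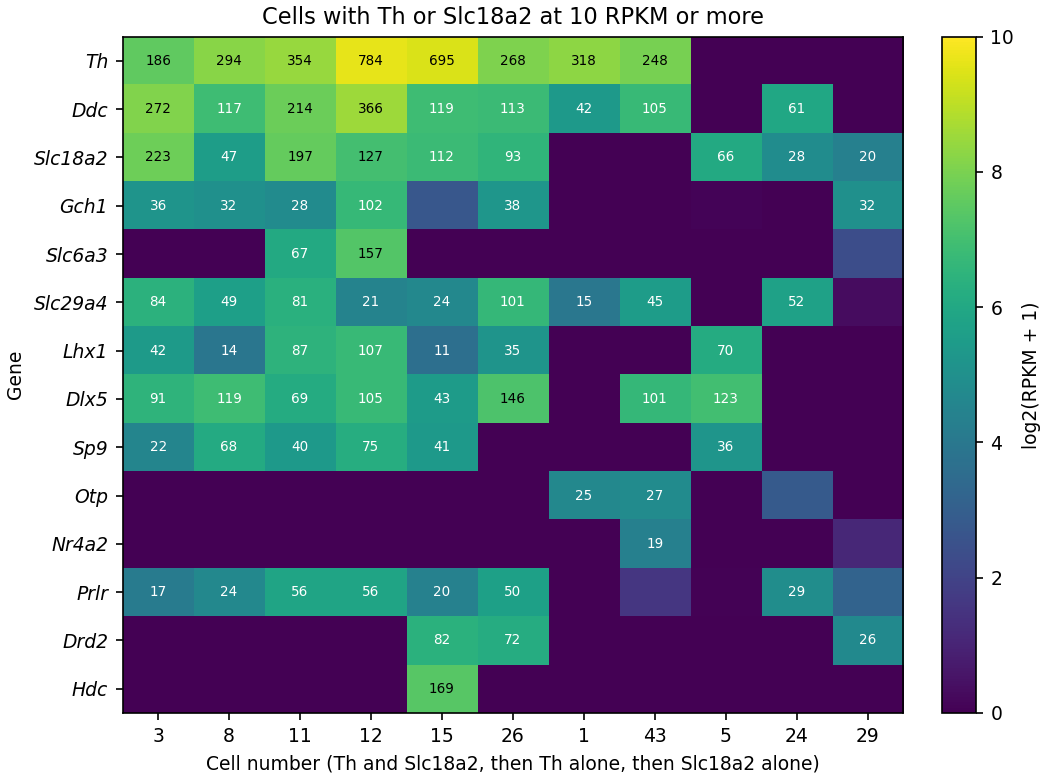
Heat map of 14 genes (rows) in the 11 cells with Th or Slc18a2 at 10 RPKM or more (columns), coloured by log2(RPKM + 1), with RPKM printed where it is 10 or more. Lhx1 and Prlr fill the 6 columns with both genes, and Otp the 2 columns with Th alone. Among the columns with Slc18a2 alone, Lhx1 also stands in cell 5 and Prlr in cell 24.

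The factors of midbrain dopamine neurons were almost unseen. Pitx3, Lmx1a, Lmx1b, En1, En2, Foxa1, Foxa2 and Otx2 were listed at 0 in all 25 cells. Nr4a2 (Nurr1) was detected in cell 43 alone, at 19.2 RPKM, which is a Th cell without Slc18a2. Of 12 listed forebrain factors, 9 were detected, where 42.7% of all symbols were. Those in at least 3 cells had a median r with Th of 0.31, against 0.00 for all genes, and ran from -0.35 (Nkx2-1) to 0.68 (Lhx1). The list was chosen with earlier results of these data known. It holds Lhx1 and Dlx5, both among the 10 genes most like Th, so no contrast with the midbrain factors is drawn from its r. Isl1 was in 18 cells, 5 of them Th cells (r = -0.26), and Nkx2-1 in 12, of which 2 were Th cells (r = -0.35).

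Prlr, the prolactin receptor through which prolactin acts back on tuberoinfundibular neurons, was detected in all 6 cells with Th and Slc18a2. It was at 16.9 RPKM in cell 3, 19.9 in cell 15, 24.4 in cell 8, 49.8 in cell 26, 55.8 in cell 11 and 56.3 in cell 12. It was listed at 0 in cell 1 and was at 2.02 RPKM in cell 43. Another 4 cells without Th (4, 7, 24 and 34) also had Prlr. Of the peptides reported with these neurons, Ghrh (60.5 RPKM) was in cell 11 alone and Nts (163 RPKM) in cell 12 alone, while Penk was in 10 cells, 4 of them Th cells (3, 12, 15 and 43). Gal, in 5 cells, shared none with Th, which was in 8 of all 25 cells (32%). The other receptors of the same list differed in their share of Th cells. The oestrogen receptor gene Esr1 was in 11 cells, 1 of them a Th cell (r with Th -0.41), the somatostatin receptor gene Sstr2 in 8 cells with 1 Th cell (r -0.31), and the growth hormone receptor gene Ghr in 3 cells with no Th cell (r -0.34). The progesterone receptor gene Pgr was in 5 cells, 3 of them Th cells (r 0.26), and Calb1, a calcium-binding protein gene, was in 13 cells with 4 Th cells (r -0.03). The median r with Th of the 8 of 10 listed genes detected in at least 3 cells was -0.16, against 0.00 over all genes, while Prlr had r = 0.49. Of the 5 dopamine receptor genes, Drd2 reached 82.4 RPKM in cell 15, 71.9 in cell 26 and 26.2 in cell 29, Drd1 reached 31.5 RPKM in cell 29, and Drd3, Drd4 and Drd5 were listed at 0 throughout.

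Enzymes that lead to other monoamines were rare. Dbh, which turns dopamine into noradrenaline, was detected in cell 6 alone (40.3 RPKM), where Th and Ddc were listed at 0. Pnmt, the adrenaline enzyme, was listed at 0 in all cells. Tph2, the neuronal serotonin enzyme, was in cell 34 alone (14.1 RPKM), where Ddc was listed at 0, and Tph1 was listed at 0 in all cells. Hdc, at 169 RPKM, stood in cell 15, in which Th was the highest gene and Slc18a2 was at 112 RPKM. All 8 Th cells had the GABA enzyme gene Gad1, found in 23 of all 25 cells, and 7 had Gad2, found in 19. The vesicular GABA transporter Slc32a1 was detected in 3 Th cells (3, 15 and 43) and in 10 cells in all. The glutamate transporters Slc17a6, Slc17a7 and Slc17a8 were detected in none of the Th cells, and in 2, 0 and 2 of all 25 cells. Hnmt, which breaks down histamine, was in 12 cells, 4 of them Th cells.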

How the data were processed

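Polyadenylated RNA of 25 hand-picked, papain-dissociated single cells was amplified by Smart-Seq2 and tagged by Nextera XT, per the labels' protocols, without molecular identifiers or strand. The authors deposited 1 table, named as gene counts, whose decimals and whole-read steps show RPKM. The submitters' processing notes name featureCounts 1.4.6, SAMtools 0.1.19, Picard 2.5.0, TopHat2 2.0.14 and bcl2fastq, with GRCm38 and mm10 as builds. Their roles, duplicate removal and the annotation were not given in the sources used here. Of 33082 rows, 26 with a number as name were left out, and 755 repeated symbols were reduced to their highest row; no member was repeated.

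Depth was estimated per cell from the whole-read steps of low values of 4225 single-transcript genes of GENCODE M21. Of the 28 to 97 low values used per cell, 60.0 to 81.2% fell within 0.12 of a whole read. The depth was chosen to bring these same values close to whole reads, so this share is not a separate check of it. On simulated data for 4225 genes at 6 depths the estimate was off by at most 0.0915%, with lengths taken as known. Exon lengths of members may exceed those the authors used, so reads of single genes are estimates.

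Detection was 10 RPKM or more, correlations used log2(RPKM + 1), and shares carry Clopper-Pearson 95% intervals. Members and lists were chosen with earlier results of these data known. Named were the members, up to 6 frequent and 4 absent genes of each list, the 10 genes most like Th and the 3 most like each other member in 5 or more cells; other genes named were chosen after their values were seen, and some listed genes are not reported here. Alternatives changed the level, the scaling, the pseudocount, the correlation and the cells. Python 3.11.15, numpy 2.4.6, pandas 2.3.3, scipy 1.17.1 and matplotlib 3.10.9 were used.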

Additional observations from a re-analysis of the deposited data

How the results depend on the processing

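No paired analysis was possible because the cells form 1 group and the results come from no test. The share of cells with Qdpr rose from 96% to 100% at 5 RPKM, above 0 and at 10 estimated reads, and that of Maoa from 44% to 72% above 0. These 4 moves, out of 72, left the exact interval of the main share. All 48 alternatives for the share of Th cells with another member, and all 6 for the median number of members per cell, stayed within the interval or the spread over cells. For correlations with Th, 63 of 64 alternatives moved r by less than 0.2. The exception was Qdpr, with r between -0.23 and 0.046 when 1 cell was left out; the value of -0.23 was without cell 25. Smaller moves still changed r by over 1.5 times for Pts (0.17 without the cells low in Malat1, 0.43 without cell 12, 0.46 by rank), Maoa (0.29 without the cells low in Malat1) and Slc6a3 (0.22 without cell 12, 0.25 by rank). Of the 10 genes most like Th, 7 were kept when detection in 5 cells was asked for and 5 under rank correlation. Depth limits short genes most, since 10 RPKM of Gch1 is about 114 reads at the median depth and of Qdpr about 32.6.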

Other observations

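Cell 25 set the genes most like Qdpr. Among them were Guk1 (r = 0.88), which encodes guanylate kinase, and Glrx5 (r = 0.87), a mitochondrial glutaredoxin. In cell 25, Qdpr was at 5.67 RPKM and Guk1 and Glrx5 were listed at 0, whereas the other 24 cells had at least 61.7 RPKM of Qdpr, 64.7 of Guk1 and 99.2 of Glrx5. Without cell 25 the correlations were 0.44 and 0.30, and 0 of the 3 most similar genes kept their place among the 3. This alternative was chosen after seeing the data.

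The genes most like Maob were Prpf4 (r = 0.73), Asb4 (0.66) and Gclm (0.65), and 0 of the 3 stayed in place without the 6 cells low in Malat1, an alternative also chosen after seeing the data. Without these cells r was 0.67, 0.49 and 0.70.

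Slc10a4, a vesicular protein of monoamine and cholinergic neurons, was detected in cells 2, 11 and 12, at up to 99.6 RPKM in cell 12, and so included both cells with Slc6a3. Syngr3 was detected in 25 cells, while Sncg was in cells 29 and 31 alone and Kcnj6 reached the level in none.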
